A study of Mus musculus with 12 samples.

Results

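The transcripts of 10 genes for selective autophagy were followed in mouse embryonic fibroblasts: Sqstm1, Nbr1, Optn, Tax1bp1, Calcoco1, Bnip3, Bnip3l, Fundc1, Pink1 and Tbk1. They were taken by gene symbol, as named cargo receptors and kinases of the pathway, from 23366 symbols in the count table. All 10 were present and passed the filter on low counts, as did 13882 genes in all. The study compared cells that were wild type (WT) or carried a knockout of Carm1 (KO), the gene of an arginine methyltransferase that acts as a transcriptional coactivator, and asked how CARM1 bears on the autophagy program of starved cells. Cells of both genotypes were C57BL/6 fibroblasts at passages 3 to 5. The WT and KO rich groups were sampled at 0 h in DMEM with 10% fetal bovine serum. The starved groups, labelled WT-GS and KO-GS, spent 18 h in glucose-free DMEM with 10% dialyzed serum, so serum dialysis and time moved together with glucose. Each group held 2 RNA-seq libraries, and the labels do not say whether these came from separate cultures or embryos. The p-values therefore rest on a spread between libraries that may be technical. The labels name the knockout without its allele or how it was made.

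Selective autophagy delivers chosen cargo to the lysosome through receptors that bind the cargo on one side and ATG8 proteins of the autophagosome membrane on the other. SQSTM1 (p62), NBR1, optineurin and TAX1BP1 recognise ubiquitin on protein aggregates, damaged organelles or bacteria, and CALCOCO1 is a receptor for endoplasmic reticulum and Golgi membranes that is also known as a nuclear receptor coactivator. BNIP3, BNIP3L (NIX) and FUNDC1 sit in the mitochondrial outer membrane and recruit autophagosomes to mitochondria without a need for ubiquitin. PINK1 marks damaged mitochondria by phosphorylating ubiquitin and the ligase Parkin, and TBK1 phosphorylates optineurin, SQSTM1 and other receptors.

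RefSeq promoter windows of the GRCm38.p6 build were found for 9 of the 10 members (11 windows, Nbr1 and Tax1bp1 with more than one), and 4 are shown because these genes separate the responses described next. The Sqstm1 window lies at chr11:50210821-50211070 on the minus strand and the Calcoco1 window at chr15:102722179-102722428 on the minus strand. The upstream of the Nbr1 windows lies at chr11:101551857-101552106 on the plus strand, and the Bnip3 window at chr7:138909507-138909756 on the minus strand. Each holds the 250 bases before the gene's start, 5′ to 3′ along the gene, with motif matches in capitals.
Sqstm1: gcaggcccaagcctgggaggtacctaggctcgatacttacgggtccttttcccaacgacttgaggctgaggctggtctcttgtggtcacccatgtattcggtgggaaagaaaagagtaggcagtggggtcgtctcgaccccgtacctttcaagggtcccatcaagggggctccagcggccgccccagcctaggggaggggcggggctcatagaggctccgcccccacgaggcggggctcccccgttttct
Calcoco1: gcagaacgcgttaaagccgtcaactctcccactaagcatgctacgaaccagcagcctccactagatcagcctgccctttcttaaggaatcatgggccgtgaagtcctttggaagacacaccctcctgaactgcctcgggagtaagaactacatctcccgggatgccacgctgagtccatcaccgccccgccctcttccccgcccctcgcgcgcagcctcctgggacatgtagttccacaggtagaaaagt
Nbr1: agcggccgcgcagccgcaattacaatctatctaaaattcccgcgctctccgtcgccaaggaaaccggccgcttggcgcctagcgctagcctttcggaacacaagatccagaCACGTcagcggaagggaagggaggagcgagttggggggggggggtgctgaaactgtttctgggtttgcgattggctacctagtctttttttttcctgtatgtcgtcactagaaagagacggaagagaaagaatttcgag
Bnip3: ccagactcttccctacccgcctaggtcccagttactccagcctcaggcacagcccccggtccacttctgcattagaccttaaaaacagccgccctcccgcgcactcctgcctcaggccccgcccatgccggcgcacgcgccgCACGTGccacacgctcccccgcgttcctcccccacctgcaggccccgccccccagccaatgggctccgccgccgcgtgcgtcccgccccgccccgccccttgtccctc
The motifs searched on both strands were the E-box CACGTG, the antioxidant response element TGACNNNGC, the C/EBP-ATF composite TGATGNAA, the hypoxia response core ACGTG and the forkhead motif GTAAACA. In the same order, they occur in 6.02%, 10.2%, 3.45%, 16.6% and 3.17% of all 32851 promoter windows of this length. Bnip3 held the E-box, starting 108 bases before the gene's start, and this palindrome contains the hypoxia response core on both strands. Nbr1 held that core once, on the opposite strand, starting 139 bases before the start. The windows of Sqstm1 and Calcoco1 held none of these letters. Of the members not shown, the downstream Tax1bp1 window held an antioxidant response element and a hypoxia response core, and those of Optn, Fundc1, Pink1 and Tbk1 held no match. A match describes the letters only, other forms of these motifs were not searched, and no binding was measured here.

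Totals over genes ran from 8447016 to 28155438 counts per library. Replicates lay close together in all groups but KO rich: the log2 ratio between replicates had a standard deviation of 0.181 to 0.196 across genes in WT, WT-GS and KO-GS and of 0.786 in KO rich. Among the members, 2 differed more than 2-fold between the KO rich replicates, Bnip3 and Pink1, and 0 did so in any other group. Replicate 1 of KO rich had the fewest counts, and the members' results that rest on this group are therefore also given without it; of the lists, only the counts are. That fit takes its spread from the closer pairs, so it calls more of all genes, and it assumes that the lone KO rich library varies as the others do. Levels are given in CPM, counts scaled to the library's size. Carm1 itself stood at 204 to 207 CPM in WT rich, 164 to 176 in WT-GS, 48.1 to 70.8 in KO rich and 53.9 to 58.6 in KO-GS. The genotypes also differed in cell markers. Of 10 fibroblast markers, Thy1 and Dcn stood below 1 CPM in each WT library (at most 0.214 and 0.762) and at 124 to 180 and 1172 to 1954 CPM in the KO libraries, and Lum was at 0 in WT libraries. Col1a1 ran the other way, at 1400 to 2807 CPM in WT and 636 to 1207 CPM in KO libraries, and Vim stood at 2142 to 2764 and 1430 to 2278 CPM. Summed CPM of all 10 was 7865 to 11032 in WT libraries and 15531 to 18723 in KO libraries. Of 6 endothelial markers the sum was 2.35 to 5.02 CPM in WT and 132 to 245 CPM in KO libraries, nearly all of it from Cdh5 (126 to 240 CPM in KO), while Pecam1 stood at 0.239 to 0.285 and 3.52 to 5.54 CPM. Kdr ran the other way (1.78 to 4.50 CPM in WT, at most 0.0861 in KO), Tie1 was at 0 in all libraries, and Tek and Esam stood at most at 0.215 and 0.371 CPM. Sums of 7 leukocyte markers were 5.58 to 7.89 and 16.98 to 36.6 CPM in WT and KO libraries, with Ptprc at most at 0.775 CPM. Cd14 gave the largest part in KO libraries (7.998 to 27.1 CPM), and Cd68 ran the other way (2.04 to 5.09 CPM in WT, 1.24 to 1.72 in KO). Sums of 4 neural markers were 101 to 117 and 238 to 374 CPM, with Gfap and Sox10 below 1 CPM in all libraries. Nearly all of these sums came from Tubb3 (20.1 to 55.1 CPM in WT, 57.8 to 143 in KO) and Map2 (49.6 to 92.7 and 105 to 244 CPM). Xist, the RNA that coats an inactive X chromosome, stood at 682 to 867 CPM in WT and at most at 0.369 CPM in KO libraries. The part that these differences play in the genotype results of any member was not tested. Xist ran with genotype in every library, so the 2 cannot be told apart here. In bulk RNA, fewer cells of a kind and less RNA per cell cannot be told apart.

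**Figure D1:**
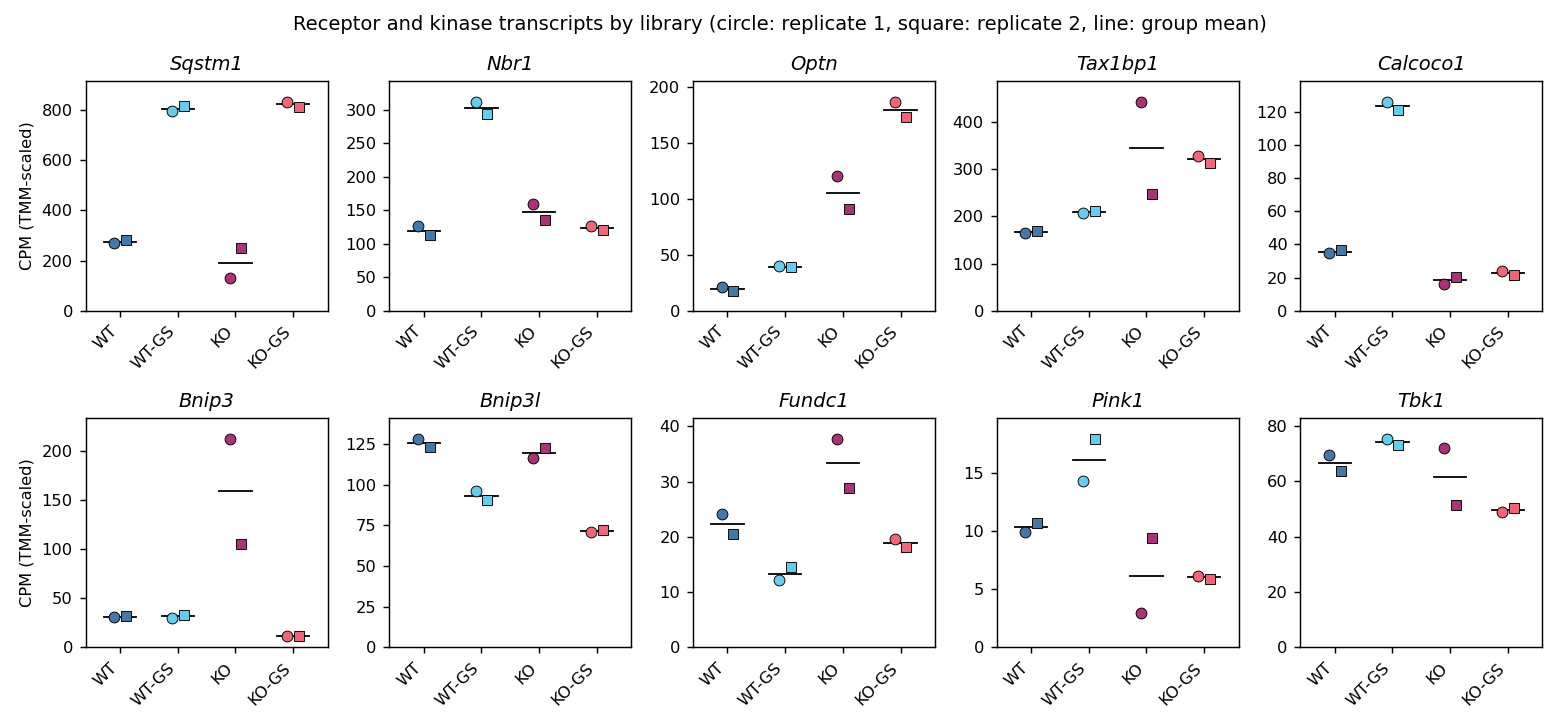
Level of each of the 10 transcripts in every library, in CPM on TMM-scaled library sizes (vertical axes, linear from 0), by group; circles are replicate 1, squares replicate 2 and lines group means. Nbr1 and Calcoco1 are highest in the WT-GS libraries (293 to 311 and 121 to 126 CPM), and Bnip3 is high in the KO rich libraries (212 and 105 CPM) and low in KO-GS (12.1 and 11.2 CPM).

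Glucose starvation of WT cells raised 4 of the 10 transcripts, Calcoco1, Sqstm1, Nbr1 and Optn, and lowered 2, Bnip3l and Fundc1, with Tax1bp1, Bnip3, Pink1 and Tbk1 not past the threshold. Starvation of KO cells raised Sqstm1 and Optn and lowered Bnip3, Bnip3l and Fundc1. All calls are at an adjusted p under 0.05 (edgeR quasi-likelihood test, Benjamini-Hochberg over the 13882 genes tested), and changes are log2 fold changes ± SE. Among all genes tested, 14.8% rose and 18% fell in WT cells and 8.44% rose and 9.78% fell in KO cells. The members' median change was 0.48 in WT and -0.19 in KO cells, beside a median of 0 over all genes in both. Without KO rich replicate 1, 7 members rose and 2 fell in WT cells, beside 34.5% and 33.9% of all genes (68.4% in either direction, against 32.9% with all libraries). In KO cells 3 then rose and 4 fell, beside 24.5% and 26.6% of all genes (51.1%, against 18.2%). A fit of the KO and KO-GS libraries alone called 0 members in KO cells (edgeR, 5 at an unadjusted p under 0.05, smallest adjusted p = 0.0555 for Bnip3), where DESeq2 over all 8 libraries called 5. Over all genes, that fit called only 50 (2831 at an unadjusted p under 0.05), and DESeq2 called 3596. Levels are not scaled by transcript length, so they are compared between groups and not between genes.

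Sqstm1, the receptor best known for aggregates and for binding the NRF2 inhibitor KEAP1, rose with starvation in both genotypes. It stood at 269 and 283 CPM in the WT rich libraries and at 794 and 814 CPM in WT-GS. The KO libraries stood at 129 and 252 CPM in rich medium and at 831 and 812 CPM after starvation. The starved libraries of both genotypes overlapped (KO against WT 0.03 ± 0.27, adjusted p = 0.935) and lay above every rich library. The rise was 1.54 ± 0.28 in WT (adjusted p = 0.00657) and 2.11 ± 0.29 in KO cells (adjusted p = 0.00464), and the responses did not differ past the threshold (KO minus WT 0.56 ± 0.39, adjusted p = 0.378). Leaving out KO rich replicate 1 gave a KO rise of 1.70 ± 0.082 and a difference of 0.16 ± 0.098 (adjusted p = 0.19). Without replicate 2 instead, the difference was 1.13 (adjusted p = 9.83e-13), so the call depends on which KO rich library is used. The WT call was lost without WT rich replicate 1 or 2 (adjusted p = 0.0611 and 0.0567, changes 1.51 and 1.58) and the KO call without KO-GS replicate 2 (adjusted p = 0.0505, change 2.12). In rich medium KO against WT gave -0.53 ± 0.28 (adjusted p = 0.156) with both KO libraries. It was -0.13 ± 0.077 without replicate 1 and -1.10 without replicate 2, so its size and its call depend on which KO rich library is used.

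Nbr1, a larger receptor that binds ubiquitin and works beside SQSTM1, rose with starvation in WT cells, and its change in KO cells did not pass the threshold. The WT libraries stood at 126 and 114 CPM in rich medium and at 311 and 293 CPM when starved. Those of the KO stood at 159 and 135 CPM in rich medium and at 126 and 121 CPM when starved. The WT-GS pair is set apart, more than 2-fold above the next group mean (ratio 2.05). The KO rich pair lay below it and above the WT rich and KO-GS pairs, which overlapped. The WT rise was 1.34 ± 0.14 (adjusted p = 0.000749), the KO change -0.26 ± 0.13 (adjusted p = 0.22), and the difference between them -1.60 ± 0.19 (adjusted p = 0.00333). That difference was -1.48 ± 0.097 without KO rich replicate 1, and it passed when each of the 8 libraries was left out in turn (-1.71 to -1.48, largest adjusted p = 0.0388). Of the 4 transcript rows of Nbr1, the one with the lowest total gave the same calls. The KO change was -0.14 ± 0.077 without KO rich replicate 1 (adjusted p = 0.12) and passed as a fall without replicate 2 (-0.37, adjusted p = 0.000108). The genotypes differed by 0.30 ± 0.13 in rich medium (adjusted p = 0.106) and -1.29 ± 0.13 after starvation (adjusted p = 0.000235), when the KO mean was 40.8% of the WT mean. The rich-medium value passed the threshold without either KO rich replicate, at 0.19 ± 0.077 without replicate 1 (adjusted p = 0.0302) and 0.42 without replicate 2 (adjusted p = 1.51e-05).

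Optn, a ubiquitin receptor that TBK1 activates, was raised by starvation in both genotypes and was several-fold higher in KO than in WT cells in both media. Its level was 21.7 and 17.6 CPM in WT rich and 40.1 and 39.1 CPM in WT-GS libraries. In KO cells it was 121 and 90.9 CPM in rich medium and 187 and 173 CPM after starvation. The 4 groups did not overlap and stood in the order WT, WT-GS, KO, KO-GS. KO against WT gave 2.43 ± 0.19 in rich medium (adjusted p = 9.16e-05) and 2.19 ± 0.18 after starvation (adjusted p = 8.67e-05), ratios of means of 5.38 and 4.55. The first was 2.22 ± 0.091 without KO rich replicate 1. Starvation gave 1.01 ± 0.18 in WT (adjusted p = 0.00608) and 0.77 ± 0.18 in KO cells (adjusted p = 0.0259), with a difference of -0.24 ± 0.25 (adjusted p = 0.571). The WT call was lost without WT rich replicate 2 (0.86, adjusted p = 0.0646) or WT-GS replicate 2 (1.01, adjusted p = 0.056). The KO call was lost when any 1 of the 6 libraries outside KO rich was left out (0.69 to 0.82, adjusted p from 0.0543 to 0.199), and was 0.98 ± 0.086 without KO rich replicate 1. The difference between responses was -0.040 ± 0.12 without KO rich replicate 1 (adjusted p = 0.83) and passed without replicate 2 (-0.44, adjusted p = 0.00171).

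Tax1bp1, a receptor related to the CALCOCO proteins, was higher in KO than in WT cells in rich medium, and its change with starvation in KO cells turned on 1 library. WT libraries stood at 166 and 169 CPM in rich medium and at 206 and 212 CPM when starved. In the KO, the rich libraries stood far apart at 442 and 247 CPM, and the starved ones between them at 328 and 313 CPM. All KO libraries lay above all WT libraries. The rich-medium difference was 1.04 ± 0.25 (adjusted p = 0.0136), with 0.56 ± 0.071 without KO rich replicate 1 (adjusted p = 2.86e-09) and 1.40 without replicate 2. That call was lost without WT rich replicate 1 or 2 (1.02 and 1.05, adjusted p = 0.0833 and 0.0782), and in a fit of the WT and KO rich libraries alone (adjusted p = 0.0912). After starvation the genotype gave 0.62 ± 0.25 (adjusted p = 0.0697), which passed without either KO rich replicate (0.61 ± 0.058 without replicate 1, adjusted p = 6.39e-13). The KO response was -0.10 ± 0.25 (adjusted p = 0.817) with both KO rich libraries, 0.37 ± 0.072 without replicate 1 (adjusted p = 2.82e-05) and -0.46 without replicate 2 (adjusted p = 2.96e-07). The difference between responses was -0.42 ± 0.35 (adjusted p = 0.465), 0.050 ± 0.093 without KO rich replicate 1 (adjusted p = 0.702) and -0.78 without replicate 2 (adjusted p = 7.37e-10). The WT response was 0.32 ± 0.25 (adjusted p = 0.361), and 0.32 ± 0.059 without KO rich replicate 1 (adjusted p = 5.92e-06).

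Calcoco1 had its highest level in starved WT cells and its lowest in KO cells of either medium. The WT libraries rose from 35.0 and 36.5 CPM to 126 and 121 CPM. KO libraries stood at 16.4 and 20.5 CPM in rich medium and at 24.1 and 21.6 CPM after starvation. Every KO library lay below every WT library. Starvation gave 1.79 ± 0.15 in WT cells (adjusted p = 0.000467), the largest rise among the 10 members there, and 0.30 ± 0.15 in KO cells (adjusted p = 0.218). The difference between responses was -1.49 ± 0.22 (adjusted p = 0.00687) and -1.64 ± 0.13 without KO rich replicate 1. It was lost without WT rich replicate 1 or 2, WT-GS replicate 1 or KO-GS replicate 2 (-1.45, -1.52, -1.45 and -1.41, adjusted p = 0.056, 0.0508, 0.0531 and 0.0569). KO against WT gave -0.95 ± 0.15 in rich medium (adjusted p = 0.00268; -0.80 ± 0.10 without KO rich replicate 1) and -2.43 ± 0.16 after starvation (adjusted p = 3.12e-05), KO means of 51.6% and 18.5% of WT means. The rich-medium call was lost with limma-voom and library quality weights (adjusted p = 0.0538). The KO response was 0.15 ± 0.11 without KO rich replicate 1 (adjusted p = 0.243) and passed without replicate 2 (0.48, adjusted p = 0.00305).

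Bnip3, the hypoxia-inducible mitochondrial receptor, was not called with starvation in WT cells and fell in KO cells from a high level in rich medium. WT libraries stood at 30.9 and 31.6 CPM in rich medium and at 30.3 and 32.8 CPM when starved. KO libraries stood at 212 and 105 CPM in rich medium and at 12.1 and 11.2 CPM when starved. The WT groups overlapped, with KO rich above and KO-GS below both. The KO fall was -3.77 ± 0.33 (adjusted p = 0.00132), the widest change of a member in any comparison between groups, and the KO rich mean was 13.7 times the KO-GS mean. In WT cells the change was 0.015 ± 0.29 (adjusted p = 0.992), with a sign that turned under some settings. The difference between responses was -3.78 ± 0.43 (adjusted p = 0.0031). The fall was -3.18 ± 0.10 and the difference -3.20 ± 0.14 without KO rich replicate 1, and both calls held when each of the 8 libraries was left out in turn, while the fall was lost in the fit of the KO and KO-GS libraries alone (-3.80, adjusted p = 0.0555). Between genotypes it differed by 2.34 ± 0.31 in rich medium (adjusted p = 0.000989) and -1.44 ± 0.30 after starvation (adjusted p = 0.00603), so the genotypes stood in opposite order in the 2 media. The first was 1.76 ± 0.097 without KO rich replicate 1.

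Bnip3l, the relative of Bnip3 known for clearing mitochondria from maturing red cells, fell with starvation in both genotypes. It ranged from 123 to 128 CPM in WT rich, from 90.6 to 96.0 CPM in WT-GS, from 117 to 122 CPM in KO rich and from 70.8 to 72.0 CPM in KO-GS libraries. No group overlapped another, and this was the member whose KO rich replicates lay closest (ratio 1.05). Starvation gave -0.43 ± 0.11 in WT (adjusted p = 0.0256) and -0.74 ± 0.11 in KO cells (adjusted p = 0.00705), with a difference of -0.31 ± 0.16 (adjusted p = 0.243) that was -0.35 ± 0.097 without KO rich replicate 1 (adjusted p = 0.00226) and -0.28 without replicate 2 (adjusted p = 0.021). The WT call was lost when any 1 of the 6 libraries outside KO rich was left out (adjusted p from 0.0675 to 0.165) and the KO call without KO-GS replicate 1 or 2 (adjusted p = 0.0893 and 0.0896). The KO fall was -0.78 ± 0.075 without KO rich replicate 1. KO against WT gave -0.07 ± 0.11 in rich medium (adjusted p = 0.617; -0.036 ± 0.075 without KO rich replicate 1) and -0.39 ± 0.11 after starvation (adjusted p = 0.0237), the latter lost when any 1 of the same 6 libraries was left out (adjusted p from 0.0621 to 0.15) and without the filter on low counts (adjusted p = 0.0581).

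Fundc1, whose protein recruits ATG8 proteins to mitochondria in hypoxia, fell with starvation in both genotypes. It ranged from 20.6 to 24.1 CPM in WT rich, 12.2 to 14.5 CPM in WT-GS, 28.8 to 37.8 CPM in KO rich and 18.2 to 19.7 CPM in KO-GS libraries. Rich libraries lay above starved libraries within each genotype, and KO above WT within each medium. Starvation gave -0.74 ± 0.20 in WT (adjusted p = 0.0262) and -0.81 ± 0.20 in KO cells (adjusted p = 0.0311), with a difference of -0.07 ± 0.28 (adjusted p = 0.926). Both calls were lost when any 1 of the 6 libraries outside KO rich was left out (adjusted p from 0.06 to 0.17 in WT and from 0.0664 to 0.202 in KO cells). The KO fall was -0.61 ± 0.13 and the difference 0.12 ± 0.17 without KO rich replicate 1, and limma-voom did not call that fall (adjusted p = 0.187). KO against WT gave 0.57 ± 0.20 in rich medium (adjusted p = 0.0497), lost when any 1 of the same 6 libraries was left out (adjusted p from 0.0798 to 0.253). That call was also lost with RLE or total-count scaling, without or with a stricter filter, with limma-voom, with the replicate block and in a fit of the WT and KO rich libraries alone (adjusted p = 0.053, 0.0774, 0.0708, 0.0529, 0.263, 0.0624 and 0.183). It held with DESeq2 and without KO rich replicate 1 (0.38 ± 0.13, adjusted p = 0.00979) or 2. The difference was 0.50 ± 0.20 after starvation (adjusted p = 0.0645; 0.000139 and 0.000145 without KO rich replicate 1 or 2). Fundc1 lies on the X chromosome. Xist, the RNA that coats an inactive X, stood at 682 to 867 CPM in WT and at most at 0.369 CPM in KO libraries, and its part in the genotype values of Fundc1 was not tested.

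Pink1, the kinase that starts Parkin-dependent mitophagy, was lower in KO than in WT cells after starvation. The WT libraries stood at 9.94 and 10.7 CPM in rich medium and at 14.3 and 17.9 CPM when starved. The KO libraries stood at 2.95 and 9.37 CPM in rich medium, on 24 and 202 counts, and at 6.14 and 5.89 CPM when starved. KO-GS lay below both WT groups, and the KO rich pair spread around KO-GS. After starvation the genotype gave -1.42 ± 0.42 (adjusted p = 0.024), a KO mean of 37.3% of the WT mean, and this call was lost when any 1 of the 6 libraries outside KO rich was left out (-1.58 to -1.25, adjusted p from 0.0501 to 0.121). It was -1.43 ± 0.14 without KO rich replicate 1 (adjusted p = 2.79e-12). The WT response was 0.64 ± 0.41 (adjusted p = 0.273) and passed without either KO rich replicate (0.64 ± 0.13 without replicate 1, adjusted p = 3.78e-05). The KO response was -0.12 ± 0.43 (adjusted p = 0.894), -0.64 ± 0.19 without KO rich replicate 1 (adjusted p = 0.00339) and 1.03 without replicate 2 (adjusted p = 0.00453), so its direction rests on which library is used. The difference between responses was -0.76 ± 0.60 (adjusted p = 0.442), -1.29 ± 0.23 without replicate 1 (adjusted p = 6.52e-06) and 0.38, in the other direction, without replicate 2 (adjusted p = 0.377). The rich-medium difference was -0.66 ± 0.43 (adjusted p = 0.242), -0.14 ± 0.18 without replicate 1 and -1.81 without replicate 2 (adjusted p = 4.93e-07).

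Tbk1, the kinase that activates the receptors, varied least among the 10, with group means within 0.58 on the log2 scale. It ranged from 63.7 to 69.4 CPM in WT rich, 73.0 to 75.4 CPM in WT-GS, 51.4 to 72.0 CPM in KO rich and 48.9 to 50.5 CPM in KO-GS libraries. It was lower in KO than in WT cells after starvation, by -0.58 ± 0.17 (adjusted p = 0.0256), a call lost when any 1 of the 6 libraries outside KO rich was left out (adjusted p from 0.0532 to 0.156). Starvation gave 0.16 ± 0.17 in WT (adjusted p = 0.525) and -0.31 ± 0.18 in KO cells (adjusted p = 0.263), with a difference of -0.47 ± 0.25 (adjusted p = 0.254). Without KO rich replicate 2 the KO response was -0.54 (adjusted p = 4.32e-06) and the difference -0.69 (adjusted p = 1.6e-06), and without replicate 1 they were -0.055 ± 0.088 and -0.22 ± 0.11 (adjusted p = 0.64 and 0.101). The WT response passed without either (0.16, adjusted p = 0.0327 and 0.0336). In rich medium KO against WT gave -0.11 ± 0.17 (adjusted p = 0.622), -0.36 ± 0.088 without KO rich replicate 1 (adjusted p = 0.000333) and 0.12 without replicate 2.

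**Figure D2:**
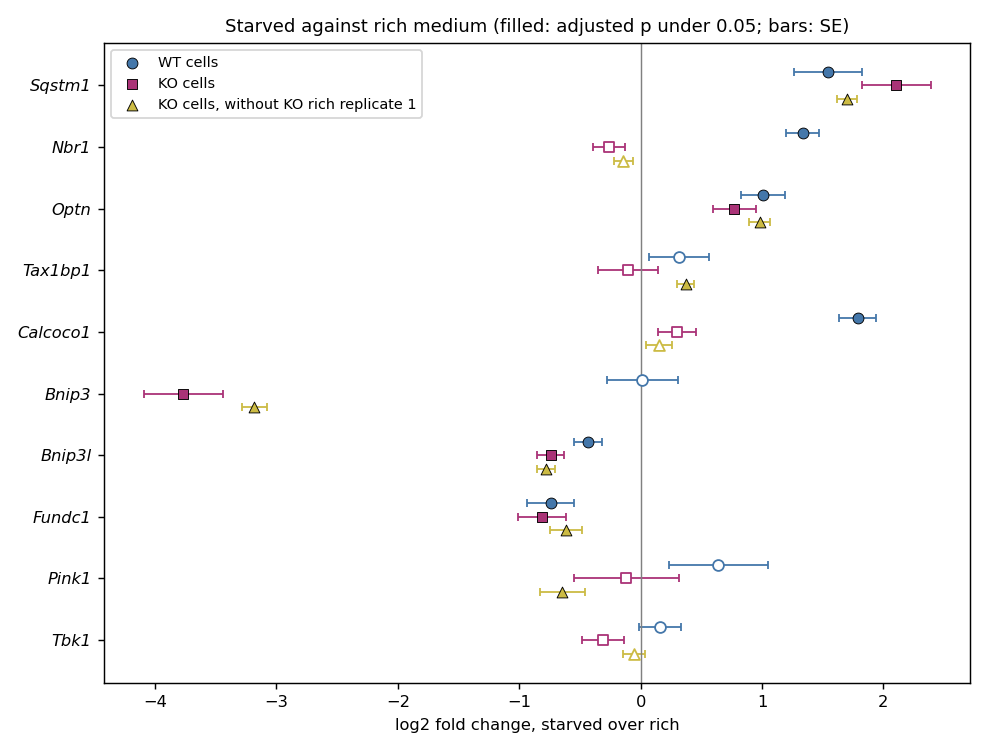
Log2 fold change of starved over rich medium (horizontal axis) for each member in WT cells (circles), in KO cells (squares) and in KO cells without KO rich replicate 1 (triangles); bars are SE and filled marks passed an adjusted p under 0.05. Nbr1 and Calcoco1 stand at 1.34 and 1.79 in WT and at -0.26 and 0.30 in KO cells, and Bnip3 stands at 0.015 in WT and -3.77 in KO cells.

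The difference between the starvation responses was called for 3 of the 10 members, Nbr1, Calcoco1 and Bnip3, each with a lower response in KO cells, and for 0 with a higher response (edgeR, which also gave 0 at an unadjusted p under 0.05, as DESeq2 and limma-voom gave 0). Among all genes tested, 5.91% had a lower and 7.42% a higher response in KO cells, 13.3% in all. The members' median difference was -0.44, beside 0.0047 over all genes. Without KO rich replicate 1, 5 members were lower, now with Bnip3l and Pink1, and 0 higher, beside 26.2% and 24.8% of all genes (51% in either direction). Leaving out replicate 2 instead gave 7 members lower and 1 higher, Sqstm1 (1.13, adjusted p = 9.83e-13), beside 25.1% and 32.6% of all genes (57.7%). For Nbr1 the changes in WT and KO cells were 1.34 and -0.26, for Calcoco1 1.79 and 0.30, and for Bnip3 0.015 and -3.77.

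Between genotypes in rich medium, Optn, Bnip3, Tax1bp1 and Fundc1 were higher and Calcoco1 was lower in KO cells, 5 of the 10 members, beside 44% of all genes tested (23.4% higher and 20.6% lower). After starvation, Optn was higher and Nbr1, Calcoco1, Bnip3, Bnip3l, Pink1 and Tbk1 were lower in KO cells, 7 of the 10, beside 54.6% of all genes (27.8% higher and 26.8% lower). With that many of all genes called, these counts are not a result about the members. Their median change was 0.11 in rich medium and -0.48 after starvation, beside 0.00092 and -0.017 over all genes. Without KO rich replicate 1, 5 members were higher and 2 lower in rich medium, beside 35.1% and 32% of all genes (67.1%). After starvation 3 were then higher and 6 lower, beside 40% and 41.2% (81.2%).

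**Figure D3:**
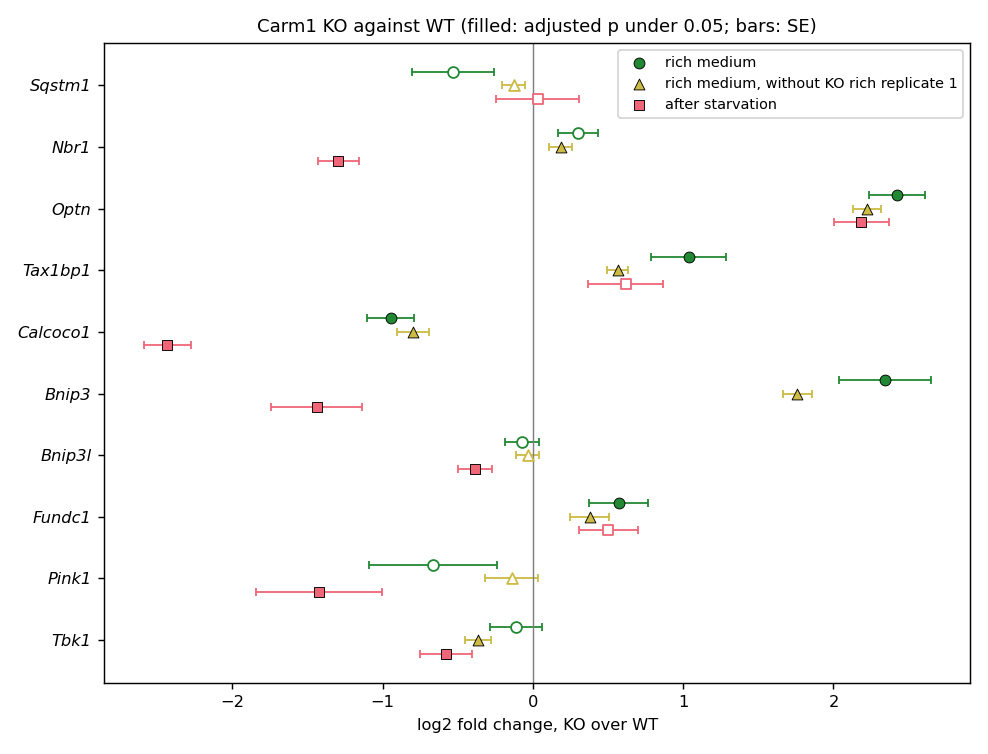
Log2 fold change of KO over WT (horizontal axis) for each member in rich medium (circles), in rich medium without KO rich replicate 1 (triangles) and after starvation (squares); bars are SE and filled marks passed an adjusted p under 0.05. Optn lies above 2 in both media, Calcoco1 lies below 0 in both, and Bnip3 moves from 2.34 in rich medium to -1.44 after starvation.

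Further genes of these pathways were read from 6 lists. Counts without KO rich replicate 1 follow in parentheses, except for the difference between responses. They come from the fit that calls more of all genes, at the shares given above, and are not a result about the lists. Of all genes tested, 32.9% were called with starvation in WT and 18.2% in KO cells. Between genotypes 44% were called in rich medium and 54.6% after starvation. With that many called, the list counts between genotypes are not a result about the lists. The difference between responses was called for 13.3% of all genes, with 7.42% higher and 5.91% lower in KO cells. Nor is any other list count a result about its list where it lies near the share of all genes. Of 20 other receptors and recruiters of receptors, 19 were tested and Calcoco2 was not, with at most 4 counts in a library. In WT cells 6 rose and 4 fell with starvation (10 and 5), with a median of 0.24, and in KO cells 3 rose and 1 fell (7 and 6), with a median of 0.24. The glycogen receptor Stbd1 had the smallest p in both, rising by 2.85 ± 0.20 in WT and 2.54 ± 0.19 in KO cells, from 8.37 to 60.5 CPM and from 12.6 to 74.3 CPM. The ferritin receptor Ncoa4 rose by 0.77 ± 0.11 in WT cells. The 4 that fell there were the reticulum receptors Fam134c (-0.73 ± 0.18) and Rtn3 (-0.68 ± 0.18), the inner membrane protein Phb (-1.26 ± 0.30) and the aggregate adaptor Wdfy3 (-0.56 ± 0.15). In KO cells Rtn3 fell (-1.07 ± 0.18), and Fam134b (0.68 ± 0.14) and the ribosome receptor Nufip1 (0.66 ± 0.15) rose beside Stbd1. By edgeR over all 8 libraries, the responses differed for 1 gene of the list, Ccpg1, a reticulum receptor induced by stress. It changed by 0.85 ± 0.21 in WT cells, with a difference of -1.43 ± 0.30 (adjusted p = 0.0237). A higher response in KO cells was called for 0 genes of the list by edgeR, and for 1 each by DESeq2 and limma-voom. Between genotypes 1 was higher and 3 lower in rich medium (4 and 8) and 1 higher and 6 lower after starvation (5 and 8). In rich KO cells Stbd1 was higher (0.61 ± 0.19), and Ncoa4 (-0.61 ± 0.12) and the mitochondrial proteins Nipsnap1 (-1.48 ± 0.17) and Gbas (-0.69 ± 0.13), which recruit receptors, were lower. In starved KO cells Phb2 was higher (0.53 ± 0.12), and Ncoa4 (-1.13 ± 0.12) and Nipsnap1 (-1.43 ± 0.17) led the lower genes.

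Of 21 genes of the PINK1-Parkin pathway and mitochondrial quality control, 20 were tested. Park2, the gene of Parkin, had 0 counts in all 8 libraries, which allows up to 0.104 to 0.369 CPM per library at 3 counts, for counting error only. With starvation 6 rose in WT cells and 4 in KO cells, and edgeR called 0 falls in either (12 and 2, and 12 and 1). At an unadjusted p under 0.05 these falls were 1 in WT and 0 in KO cells, and both DESeq2 and limma-voom gave the same. List medians were 0.36 and 0.26. The deubiquitinase Usp30, which opposes Parkin, rose by 1.45 ± 0.21 in WT cells, and Tomm20, an import receptor of the outer membrane, by 0.78 ± 0.12. In KO cells the protease Parl, which cleaves PINK1 in healthy mitochondria, rose by 1.17 ± 0.17, the phosphatase Pgam5 by 0.76 ± 0.15, Tomm20 by 0.54 ± 0.12 and Rabgef1 by 0.60 ± 0.15. Between genotypes 3 were higher and 3 lower in rich medium (5 and 6), and 3 higher and 5 lower after starvation (6 and 9). In rich KO cells Oma1, a stress protease, Vcp and Usp8 were higher (1.15 ± 0.16, 0.44 ± 0.13 and 0.73 ± 0.24), and the fusion gene Mfn2, Usp30 and Rabgef1 were lower (-1.57 ± 0.18, -0.76 ± 0.21 and -0.46 ± 0.15). In starved KO cells Parl, Vcp and Oma1 were higher (0.86 ± 0.17, 0.55 ± 0.13 and 0.61 ± 0.16). There Usp30, Mfn2, Tbc1d15, Rhot1 and Tomm20 were lower (-1.50 ± 0.21, -0.94 ± 0.18, -0.74 ± 0.18, -0.43 ± 0.14 and -0.35 ± 0.12).

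Among 10 TBK1 adaptors and signalling partners, starvation raised Mavs (0.50 ± 0.15) and lowered Tmem173, the gene of STING (-1.24 ± 0.17), in WT cells, and lowered Mb21d1, the gene of the DNA sensor cGAS (-1.24 ± 0.27), in KO cells (4 and 3, and 2 and 1). The TBK1 relative Ikbke was higher in KO cells, by 2.20 ± 0.22 in rich medium and 2.16 ± 0.22 after starvation. Tmem173 (-1.98 ± 0.18), Mb21d1 (-2.17 ± 0.27) and the adaptor Tbkbp1, at means of 1.89 CPM in WT and 0.093 CPM in KO cells, were lower in rich medium. In all 1 was higher and 3 lower there (3 and 3), and 2 were higher and 4 lower after starvation (5 and 4). After starvation Traf3 was higher beside Ikbke (0.64 ± 0.21), and Mb21d1, Tmem173 and Azi2 were lower (-2.73 ± 0.27, -0.56 ± 0.17 and -0.45 ± 0.15), as was Tbkbp1 (1.04 and 0.12 CPM). The responses of Tmem173 differed by 1.42 ± 0.24 (adjusted p = 0.0123).

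Of 12 genes of the p62-KEAP1-NRF2 axis, in which SQSTM1 releases the regulator NRF2 from KEAP1, 3 rose and 1 fell in WT cells and 1 rose in KO cells (3 and 3, and 5 and 2). The heme oxygenase Hmox1 rose by 1.47 ± 0.14 in WT and 2.90 ± 0.14 in KO cells, and in WT cells Gclc, for glutathione synthesis, and the cystine transporter Slc7a11 rose by 1.23 ± 0.24 and 0.62 ± 0.16 and Keap1 fell (-0.93 ± 0.25). The responses differed for Hmox1 by 1.43 ± 0.19 (adjusted p = 0.00505) and for Gclc by -1.38 ± 0.33 (adjusted p = 0.0386). In rich KO cells 3 were higher and 2 lower (5 and 5). Slc7a11, Srxn1 and Nfe2l2, the gene of NRF2, were higher by 3.76 ± 0.17, 2.03 ± 0.18 and 0.56 ± 0.18, and Hmox1 and Traf6 were lower (-0.76 ± 0.14 and -0.64 ± 0.15). After starvation 4 were higher and 1 lower (7 and 4). Slc7a11, Srxn1, Hmox1 and Nqo1 were higher by 3.12 ± 0.16, 2.67 ± 0.19, 0.66 ± 0.13 and 1.25 ± 0.27, and Gclc was lower (-0.69 ± 0.24).

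In the list of 12 HIF, FOXO and turnover factors of BNIP3 and BNIP3L, 2 rose and 4 fell with starvation in WT cells and 1 rose and 2 fell in KO cells (6 and 4, and 1 and 4). Fbxl4, which restrains mitophagy through BNIP3 and BNIP3L, rose in both, by 1.29 ± 0.17 and 0.75 ± 0.17, and Arnt, the partner of HIF proteins, rose by 0.68 ± 0.11 in WT cells. The oxygen sensor Egln1, itself a known HIF target, fell in both (-1.41 ± 0.15 and -1.13 ± 0.14). So did Foxo1 (-1.35 ± 0.22 and -1.25 ± 0.22), from 52.2 to 20.4 CPM in WT and from 22.5 to 9.35 CPM in KO cells. Epas1, the gene of HIF-2α, fell in WT cells from 11.9 to 13.2 CPM in rich medium to 3.07 to 3.46 CPM (-1.94 ± 0.23) and was at 0 counts in all 4 KO libraries. Egln3 likewise fell in WT cells from 6.56 to 7.16 CPM to 1.87 to 2.47 CPM (-1.66 ± 0.28) and was at 0 counts in the 4 KO libraries. Between genotypes 4 were higher and 3 lower in rich medium and 3 higher and 6 lower after starvation (5 and 4, and 4 and 6). In rich medium Hif1a, Fbxl4, Foxo3 and Egln1 were higher in KO cells (2.58 ± 0.37, 0.94 ± 0.17, 0.83 ± 0.16 and 0.62 ± 0.14), and Foxo1 was lower beside Epas1 and Egln3 (-1.23 ± 0.22). After starvation Egln1, Foxo3 and Hif1a were higher (0.90 ± 0.14, 0.74 ± 0.16 and 1.61 ± 0.36), and Epas1 and Egln3 led the lower genes. Hif1a means were 145 and 161 CPM in WT and WT-GS and 869 and 492 CPM in KO and KO-GS. The responses of Arnt differed by -0.73 ± 0.16 (adjusted p = 0.0263).

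Of the 5 ATG8 genes whose proteins the receptors bind, 3 rose in WT cells, Gabarapl1 (1.20 ± 0.13), Map1lc3b (0.78 ± 0.14) and Map1lc3a (0.56 ± 0.14). In KO cells edgeR called 0 (1 at an unadjusted p under 0.05, a fall that DESeq2 called and limma-voom did not), and 3 fell without KO rich replicate 1. The responses of Gabarapl1 and Map1lc3b differed between genotypes by -1.41 ± 0.19 and -1.18 ± 0.20.

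**Figure D4:**
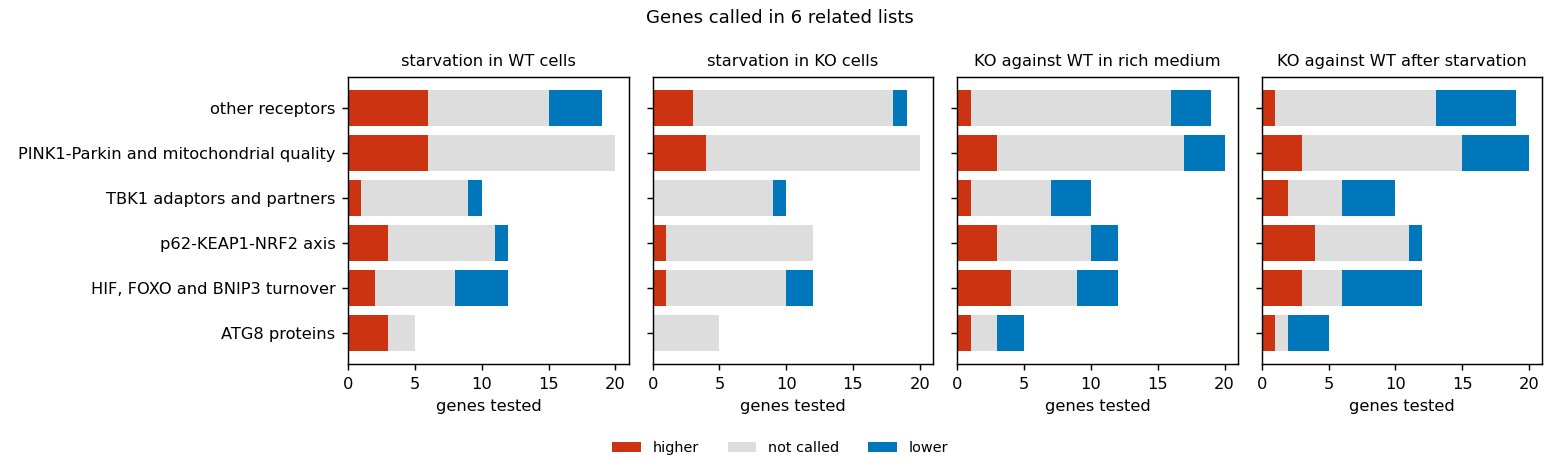
Number of tested genes (horizontal axis) of 6 related lists that were higher (red), lower (blue) or not called (grey) at an adjusted p under 0.05 in 4 comparisons. With starvation in WT cells the PINK1-Parkin list has 6 higher and 0 lower genes, and the ATG8 list has 3 higher in WT and 0 called in KO cells. Of all genes tested, 32.9% were called with starvation in WT and 18.2% in KO cells. Between genotypes 44% were called in rich medium and 54.6% after starvation.

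The 3 members with the widest range of group means were Bnip3, Optn and Calcoco1 (3.77, 3.20 and 2.74 on the log2 scale). For these, the genes with the most similar pattern were ranked by Pearson correlation of log2 CPM over the 8 libraries among 9788 genes. The libraries fall into 4 pairs, and the KO rich pair lay far apart, so the values only describe. For Bnip3 they were Sspn, Msh6 and Pcna (r = 0.996, 0.996 and 0.988). Msh6 and Pcna, a mismatch repair protein and the sliding clamp of replication, had means of 159 and 321 CPM in WT rich, 157 and 315 in WT-GS, 355 and 523 in KO rich and 108 and 197 in KO-GS cells. For Optn they were the repressor Bcl6, Rnf11 and Rrn3 (r = 0.995, 0.993 and 0.993), with Bcl6 at 8.25, 16.9, 36.3 and 54.7 CPM in WT, WT-GS, KO and KO-GS cells. For Calcoco1 they were D10Wsu102e, Tmx2 and Gpn1 (r = 0.996, 0.994 and 0.993), with Tmx2 at 59.2, 135.7, 40.3 and 48.7 CPM in the same order. Among the members themselves, Optn and Tax1bp1 (r = 0.892) and Nbr1 and Calcoco1 (r = 0.848) were the most alike, and Sqstm1 and Fundc1 (r = -0.882) the least.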

How the data were processed

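RNA-seq of 8 libraries, 2 for each of the 4 groups, was analysed from 1 deposited table. The 4 chromatin libraries were not used here. The deposited values are whole-number counts per RefSeq transcript, and the submitters' processing notes name TopHat2 2.0.9, bedtools and the mm9 build for these libraries. Counting rules, including strand and reads with several matches, are not stated. Columns were matched to samples by name. A gene with several transcript rows (among the members, Nbr1 with 4) was read from the row of highest total. None of the members overlaps another gene of the count table in RefSeq (GRCm38.p6). Bnip3 and Pink1 each overlap 1 RefSeq gene that has no row in the count table, and the effect on their counts was not tested.

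The filterByExpr rule of edgeR 4.0.16 (R 4.3.3) left 13882 genes, which were scaled by TMM and fitted with 4 group means over all 8 libraries. Quasi-likelihood tests gave 5 contrasts, adjusted by Benjamini-Hochberg over all genes. The SE is the log2 fold change divided by the square root of F. The fit was tested on simulated counts. DESeq2 1.42.0 and limma 3.58.1 were among the alternatives. Genes named are the 10 members, Carm1, the 2 list genes with the smallest p per comparison, all genes in a list count of 5 or fewer, and the 3 most similar genes (prior count 2, at least 10 CPM in a group) of 3 members. Beyond this rule, markers, Xist and genes with 0 counts are given. The members and lists were chosen with earlier results of these data known.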

Additional observations from a re-analysis of the deposited data

Results flagged for a closer look

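The starvation responses of 3 members differed between genotypes by the test of the difference itself, KO minus WT on the log2 scale. Nbr1 differed by -1.60 ± 0.19 (adjusted p = 0.00333), with group means of 120 and 302 CPM in WT and 147 and 123 CPM in KO cells. Calcoco1 differed by -1.49 ± 0.22 (adjusted p = 0.00687), with means of 35.8 and 123 CPM in WT and 18.4 and 22.9 CPM in KO cells. Unlike those of Nbr1 and Bnip3, the Calcoco1 call was lost when some single libraries were left out, as given above. Bnip3 differed by -3.78 ± 0.43 (adjusted p = 0.0031), with means of 31.2 and 31.6 CPM in WT and 159 and 11.6 CPM in KO cells. No group had enough libraries to test for a single outlying sample.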

How the results depend on the processing

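The members' calls were recomputed with RLE or total-count scaling, without the filter or with one at 5 CPM in 2 libraries, with DESeq2, with limma-voom and quality weights, with the replicate block, from the lowest transcript row, from the 4 libraries of a comparison alone, and with each library left out. Scaling, filters, DESeq2, the block and the lowest row kept the number of members called within 1.5 times in every comparison. Over all single-gene results, 708 values kept direction and side of the threshold, 77 lost and 36 gained a call, and 19 changed sign. Each value was counted once, so a changed sign was not counted as a gained call even where it passed the threshold. Tax1bp1 and Pink1 in KO starvation each had such a value. Limma-voom gave 3 in rich medium between genotypes (main 5). The 4-library fits gave 3 there and 0 for starvation in KO cells, where edgeR left 5 members at an unadjusted p under 0.05, and DESeq2 over 8 libraries called 5. Leaving out 1 library gave 2 to 9 members for starvation in WT (main 6), 1 to 10 in KO cells (main 5), 3 to 8 (main 5) and 4 to 9 (main 7) between genotypes in rich medium and after starvation, and 2 to 8 for the difference between responses (main 3). Over all genes the same gave 1626 to 9511 (main 4561), 278 to 8419 (2528), 3431 to 10351 (6114), 5212 to 11273 (7586) and 473 to 8007 (1850). The 4-library fits gave 9397, 50 and 3184 genes in the first 3 comparisons, limma-voom 9393, 1316 and 3748, and DESeq2 2880 for the difference.

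With the replicate block, 6, 5, 4, 7 and 3 members were called in the same order, and Fundc1 in rich medium was the call lost. Same-numbered libraries deviated with correlations of -0.049 to 0.195 between groups, so the numbers were not taken as pairs. Total counts moved the median of all genes by -0.12 between genotypes after starvation.

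Signs turned in values past no threshold in the main analysis. Bnip3 in WT starvation turned to -0.015 (RLE), -0.0090 (total counts), -0.0081 (no filter), -0.025 (stricter filter), -0.015 (DESeq2), and with a library left out ran from -0.065 to 0.072, below 0 without WT replicate 1 (-0.0013), WT-GS replicate 2 and KO-GS replicate 1 (-0.0068). Tax1bp1 in KO starvation turned to 0.077 (limma-voom) and ran from -0.46 to 0.37 with a library left out, and its difference between responses from -0.78 to 0.050, both above 0 without KO replicate 1. Pink1 ran from -0.64 to 1.03 in KO starvation and from -1.29 to 0.38 in the difference, and Tbk1 from -0.36 to 0.12 in rich medium, each above 0 without KO replicate 2. Sqstm1 between starved genotypes turned to -0.090 with total counts. The difference for Fundc1 turned to 0.021 (limma-voom), and ran from -0.26 to 0.12 with a library left out, above 0 without WT replicate 2 (0.039), WT-GS replicate 2 (0.058) and KO replicate 1. The cause was not tested. List counts without KO replicate 1 were added after seeing the data.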
